A study of Mus musculus with 32 samples.

Results

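The complement genes measured here were 9 of the 32285 genes counted in the bulk RNA sequencing of whole mouse bladders: C1qa, C1qb, C1qc, C1s1, C2, C3, C4b, Cfb and C3ar1. They were chosen by name, each Ensembl identifier matched 1 symbol, and all 9 passed the filter on low counts in each of the 9 comparisons. The 32 bladders came from female C57BL/6 mice. Groups were young at 2 months (n = 6), middle-aged at 10 months (n = 5) and untreated old at 26 months (n = 6), plus 3 groups gavaged from 21 to 26 months on 3 days of each month. Those received water (n = 5), the vehicle (n = 4), made up of Phosal 50 PG at 60% with polyethylene glycol 400 at 30% and ethanol at 10%, or Dasatinib at 5 mg/kg/day with Quercetin at 50 mg/kg/day in that vehicle (D+Q, n = 6), a drug pair used to remove senescent cells. Libraries held 15088372 to 52650259 counts, and the lowest count of any member in any bladder was 111, for C3ar1. Values are TMM-scaled CPM, which divides counts by library size, and levels of different genes are compared only as TPM, which also divides by exon length. The labels number the bladders of each group without naming animals, so p-values measure the spread between these libraries.

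Complement is a cascade of secreted proteins that tags targets for uptake or lysis. In the classical pathway, C1q binds antibody or other ligands, the protease C1s cuts C4 and C2, and their products cut the central component C3. In the alternative pathway, factor B joins cut C3 to make another convertase, and the C3a fragment is sensed by C3aR1. The liver makes most circulating complement, while C1q is made mainly by macrophages and dendritic cells and the other components can be made locally by stromal and epithelial cells.

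Per exon length, C3 was the member with the highest level in the 3 age groups and C3ar1 the one with the lowest. In middle-aged bladders the mean TPM was 455 ± 68.0 for C3, 389 ± 11.6 for C1s1, 255 ± 13.7 for C1qa, 204 ± 13.5 for C1qb, 133 ± 10.1 for C1qc, 96.4 ± 7.06 for C4b, 54.6 ± 2.48 for C2, 51.3 ± 2.53 for Cfb and 8.46 ± 0.677 for C3ar1 (SD, n = 5). In untreated old bladders C3 stood at 875 ± 147 TPM, C1qa at 438 ± 117 and C1s1 at 415 ± 39.1 (SD, n = 6), so that C1qa and C1s1 were within their spread of each other. C4b at 224 ± 64.3 TPM was then level with C1qc at 219 ± 56.2, and Cfb at 88.8 ± 17.3 stood above C2 at 61.0 ± 7.57 (SD, n = 6).

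The members lie in a few clusters in mm10, each on the minus strand. C1qb (chr4:136880129-136886187), C1qc (chr4:136889804-136893065) and C1qa (chr4:136895917-136898803) follow each other with 3616 and 2851 bases between them. On chromosome 17, C4b (chr17:34728380-34743882) is followed by its near-identical copy C4a and then by Cfb (chr17:34856374-34862518) and C2 (chr17:34862604-34898265), the last pair 85 bases apart, while C3 (chr17:57203970-57228136) is separate. C1s1 (chr6:124530345-124542359) and C3ar1 (chr6:122847138-122856161) are on chromosome 6. The exons of C2 share 161 bases (4.16% of its length) with Zbtb12 on the other strand, which had 14510 counts in all where C2 had 69300. Exons of C1s1 share 576 bases (18.4%) with Gm16567, which had 0 counts in the 32 bladders. Whether counting used strand is not given in the sources used here. How reads of the bases shared with Zbtb12 or Gm16567 were assigned is therefore not known.

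RefSeq promoter sequences (GRCm38.p6) were at hand for 5 of the 9 members. The 250 bases before the RefSeq start are shown for C1qb and C1qc, the neighbours whose levels moved together below, and for C3, the member with the highest TPM. For C1qc the RefSeq start lies inside the gene as counted, which begins at chr4:136893065 on the minus strand. Part of the C1qc sequence shown therefore overlaps that gene. Capitals mark letters found on either strand: GAGGAA, the core bound by PU.1, a factor of myeloid cells, in both C1q promoters, and TTGCGNAA, a C/EBP-type motif, in C3.
C1qb, chr4:136886201-136886450, minus strand: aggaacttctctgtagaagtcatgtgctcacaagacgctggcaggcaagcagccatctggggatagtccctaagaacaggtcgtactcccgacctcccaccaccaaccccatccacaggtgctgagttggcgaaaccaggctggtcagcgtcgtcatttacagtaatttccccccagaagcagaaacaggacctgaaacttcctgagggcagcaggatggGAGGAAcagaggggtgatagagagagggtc
C1qc, chr4:136892915-136893164, minus strand: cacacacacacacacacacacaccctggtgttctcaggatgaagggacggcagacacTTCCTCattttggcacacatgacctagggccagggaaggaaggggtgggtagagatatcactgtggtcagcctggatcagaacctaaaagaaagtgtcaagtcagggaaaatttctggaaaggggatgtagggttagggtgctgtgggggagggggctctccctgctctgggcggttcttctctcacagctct
C3, chr17:57228137-57228386, minus strand: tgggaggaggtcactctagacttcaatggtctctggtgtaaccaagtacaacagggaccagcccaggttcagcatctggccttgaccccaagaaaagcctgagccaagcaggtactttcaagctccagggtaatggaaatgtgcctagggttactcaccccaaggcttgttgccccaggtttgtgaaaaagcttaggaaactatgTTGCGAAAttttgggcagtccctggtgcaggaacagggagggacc
GAGGAA began 30 bases before the RefSeq start of C1qb on the gene's strand and 193 bases before that of C1qc on the opposite strand. It stood in 23.3% of the 32851 promoter sequences of this length, and TTGCGNAA in 0.67%. The interferon motifs TTCNNNGAA (7.02% of promoters) and GAAANNGAAA (2.98%) and the NF-kB motif GGGANNTTCC (1.21%) were in none of the 6 sequences of the 5 members. A match is a run of letters and was not tested as a binding site.

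Between middle-aged and untreated old bladders, 8 of the 9 members rose, by 1.15-fold to 2.40-fold, against 13.0% of the 17156 genes tested that were called higher. The C1q chains, C3, C4b and Cfb were in addition higher in each untreated old bladder than in each middle-aged one, which held for 7.61% of genes. C1s1 was the member that did not pass the test. The median log2 fold change was 0.83 over the 9 members and -0.005 over all genes tested. The plot of CPM by bladder shows these values.

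**Figure D1:**
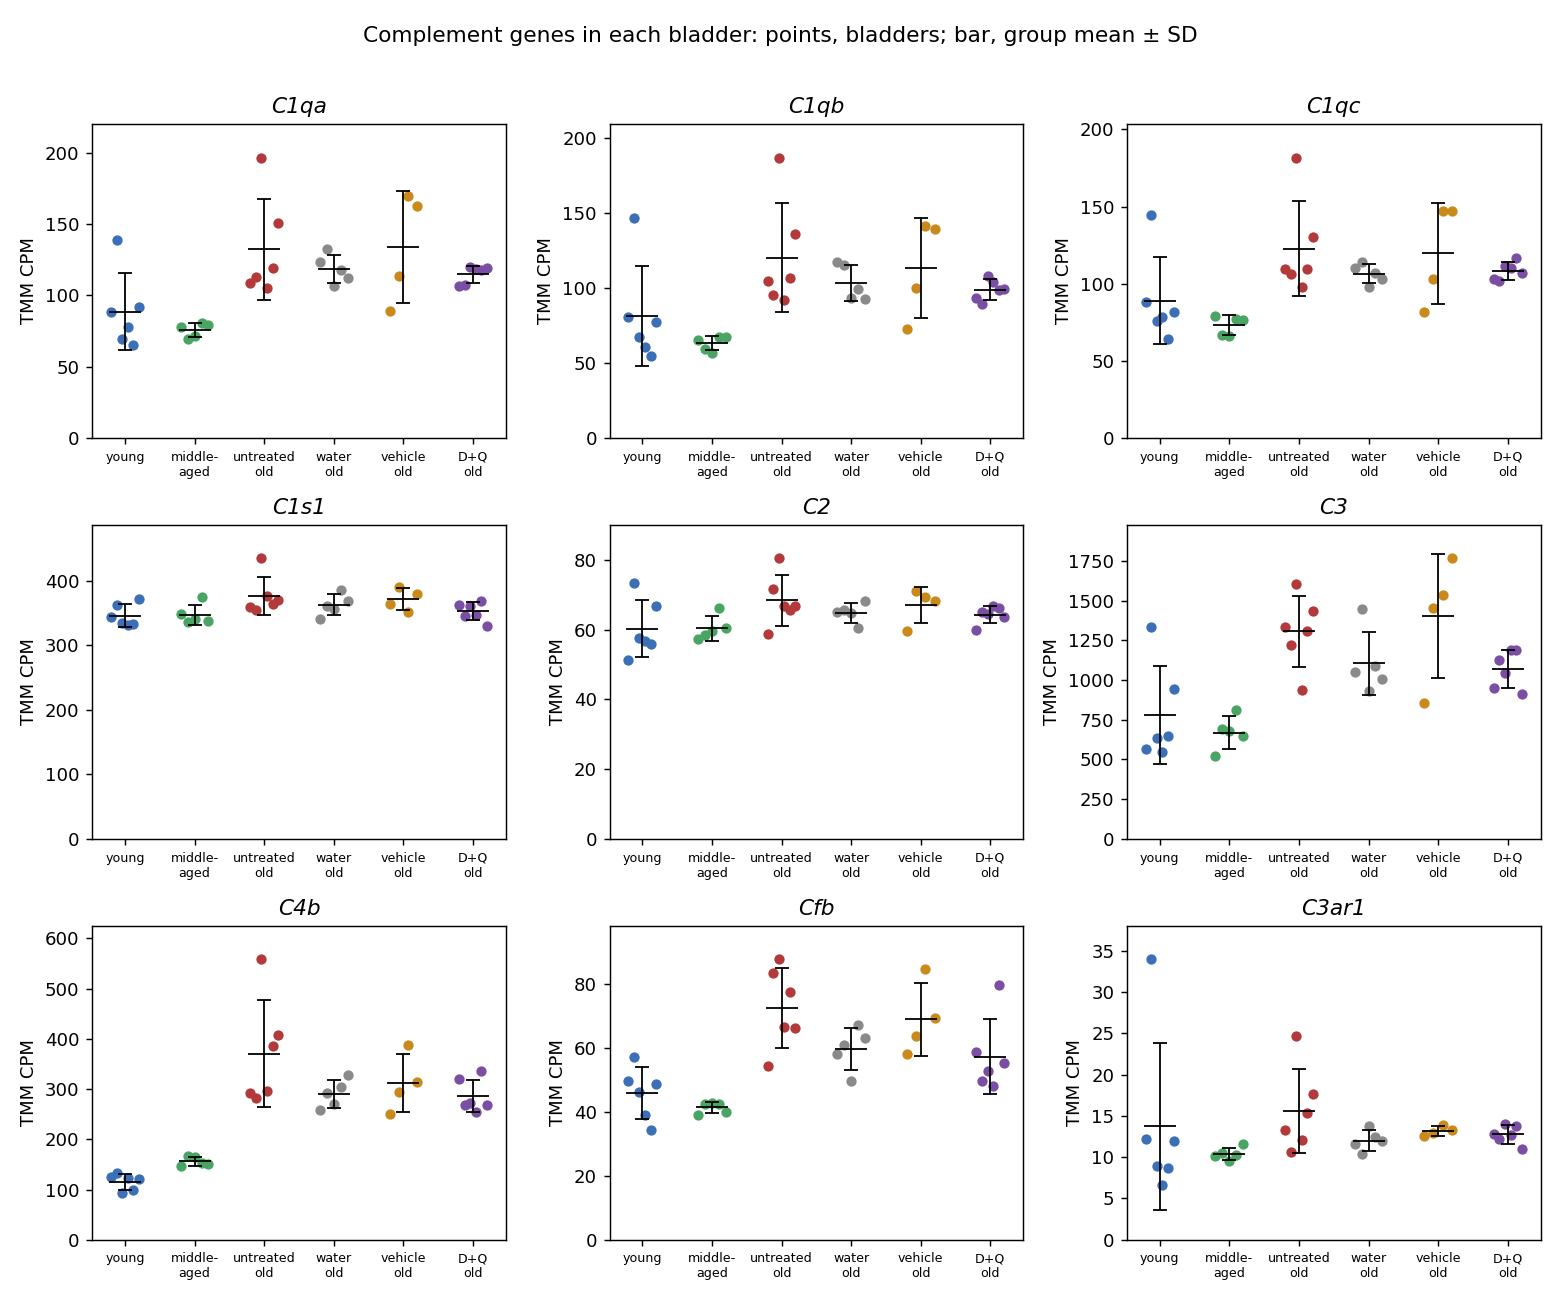
TMM CPM of the 9 complement genes (y axes, linear from 0) in each of the 32 bladders (points) by group, with the group mean and SD (bars). The C1q chains, C3, C4b and Cfb were higher in all 6 untreated old than in all 5 middle-aged bladders, and young replicate 2 and untreated old replicate 3 lay above the other bladders of their groups for the C1q chains.

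The 3 chains of C1q, which together form the recognition molecule of the classical pathway, gave the same picture. C1qa was at 77.7, 69.1, 71.2, 80.6 and 79.5 CPM in middle-aged bladders (replicates 1, 2, 4, 5 and 6) and at 109, 113, 197, 105, 119 and 151 CPM in untreated old ones (replicates 1 to 6). The lowest untreated old bladder thus lay above the highest middle-aged one. The log2 fold change was 0.83 (SE 0.15, adjusted p = 0.00142) for C1qa, 0.95 (SE 0.16, adjusted p = 0.00121) for C1qb and 0.77 (SE 0.14, adjusted p = 0.00166) for C1qc. C1qb ranged from 57.0 to 67.4 CPM in middle-aged and from 92.0 to 187 in untreated old bladders, and C1qc from 66.0 to 79.3 and from 98.02 to 182. Untreated old replicate 3 was the highest bladder for the 3 chains, and without it the log2 fold change of C1qa was at its lowest among the bladders left out in turn, 0.685.

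The chains kept nearly constant proportions. C1qb per C1qa, as TPM, had a median of 0.802 in middle-aged and 0.86 in untreated old bladders, with ranges of 0.765 to 0.823 and 0.807 to 0.917. Across the 32 bladders Pearson's r of log2 CPM was 0.98 between C1qa and C1qb, 0.982 between C1qa and C1qc and 0.985 between C1qb and C1qc, and 0.97, 0.973 and 0.974 after the group means were removed. These are descriptions of bladders that share library, depth and scaling.

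Macrophage markers moved with C1q. Of 10 markers, 7 rose in untreated old against middle-aged bladders, where 13.0% of genes tested were called higher. Among the 7 were Cd68, a lysosomal protein (log2 fold change 0.72, adjusted p = 0.000163) and Fcgr1, an antibody receptor (1.01, adjusted p = 0.00441). Csf1r, the receptor that macrophages need to survive, rose by 0.22 (adjusted p = 0.0403), and Adgre1 had 0.42 (adjusted p = 0.0835). The summed CPM of the 10 markers was 382 to 453 in middle-aged and 468 to 673 in untreated old bladders, and none of the 10 was at or under 3 counts in all libraries. C1qa per Csf1r, as TPM, was 3.28 to 3.67 in middle-aged and 4.60 to 6.59 in untreated old bladders, so the ranges did not overlap, whereas C1qa per Adgre1 overlapped at 6.27 to 8.19 against 8.07 to 10.8. The part of macrophage number in the C1q values was not tested, and in whole bladders more cells of a type and more RNA per cell cannot be told apart.

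Markers of other cell types moved between the same groups. In untreated old against middle-aged bladders 5 of 5 B cell, 4 of 4 plasma cell, 4 of 4 T cell, 3 of 4 dendritic cell and 1 of 1 tested neutrophil markers rose. Of urothelium 3 of 6 markers fell, of fibroblasts 1 of 6, of smooth muscle 1 of 5, of endothelium 1 of 4 and of skeletal muscle 1 of 3 tested. Of all genes tested, 13.0% were called higher, and 4110 of 17156 were called in either direction. No mast cell, adipocyte or hepatocyte marker passed in edgeR's test, with 4, 4 and 1 tested. The summed level of the 4 hepatocyte markers was 5.46 to 42.4 CPM over the 32 bladders. The part of these cells in the members' values was not tested.

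C1s1, the protease that C1q activates, was the flattest of the early components. It was at 336 to 375 CPM in middle-aged and 356 to 435 CPM in untreated old bladders, groups that overlapped. The log2 fold change was 0.14 (SE 0.053, adjusted p = 0.0722, 95% interval 0.03 to 0.25), and it passed with the DESeq2 Wald test (adjusted p = 0.0458), with all 6 groups in 1 fit (0.0469) and without middle-aged replicate 5 (0.0478), in 3 of 17 alternatives whose adjusted p ran from 0.0458 to 0.157. Its partner protease C1ra had 0.15 (SE 0.055, adjusted p = 0.0703). As TPM, C1s2, the copy of C1s1, was at 1.74 ± 0.487 and C1rb at 0.108 ± 0.0757 in untreated old bladders, both far under C1s1 at 415 ± 39.1 (SD, n = 6).

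Among the convertase components the largest rise was that of C4b, the mouse C4 that is cut by C1s and stays attached to targets. C4b was at 147, 168, 164, 153 and 152 CPM in middle-aged bladders and at 292, 283, 559, 297, 385 and 408 CPM in untreated old ones. Each untreated old bladder was above each middle-aged one. The log2 fold change was 1.27 (SE 0.16, adjusted p = 0.000129), and between 1.10 and 1.33 in 17 alternatives, which left it past the threshold. C4a, with reads that could be mistaken for C4b, was at 2.35 ± 0.184 CPM in middle-aged (SD, n = 5) and 2.23 ± 0.345 in untreated old bladders (SD, n = 6), a log2 fold change of -0.05 (adjusted p = 0.783). As TPM, C4a was at 1.24 ± 0.208 and C4b at 224 ± 64.3 in untreated old bladders (SD, n = 6).

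C3, the component on which the pathways converge, was at 520, 689, 678, 810 and 645 CPM in middle-aged and at 1333, 1222, 1605, 940, 1309 and 1432 CPM in untreated old bladders. The groups did not overlap. Its log2 fold change was 0.99 (SE 0.13, adjusted p = 0.000174). Cfb, the factor B of the alternative convertase, went from 39.1 to 42.8 CPM in middle-aged to 54.2 to 87.7 CPM in untreated old bladders with a log2 fold change of 0.83 (SE 0.10, adjusted p = 0.000113).

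C2, the protease subunit of the classical convertase and the gene next to Cfb, moved far less. C2 was at 57.2 to 66.3 CPM in middle-aged and 58.9 to 80.4 CPM in untreated old bladders, which overlapped. Its log2 fold change was 0.20 (SE 0.066, adjusted p = 0.0411), and it passed in 8 of 17 alternatives. C2 did not pass with all 6 groups in 1 fit (adjusted p = 0.0597) or with a fit blocked on replicate number (0.0546). Leaving out any of middle-aged replicates 1, 2, 4 and 6 or untreated old replicates 2, 4 and 6 ended the call, with adjusted p of 0.051 to 0.096.

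C3ar1, the receptor for C3a, was at 9.52 to 11.6 CPM in middle-aged and 10.6 to 24.7 CPM in untreated old bladders, with overlap. It rose by a log2 fold change of 0.61 (SE 0.18, adjusted p = 0.0272). The call was lost without middle-aged replicate 1, 4 or 5 or untreated old replicate 6, at adjusted p of 0.0517 to 0.0661, and with all 6 groups in 1 fit (0.12), and it held in 12 of 17 alternatives. C3ar1 per Csf1r, as TPM, was 0.112 to 0.12 in middle-aged and 0.111 to 0.200 in untreated old bladders.

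**Figure D2:**
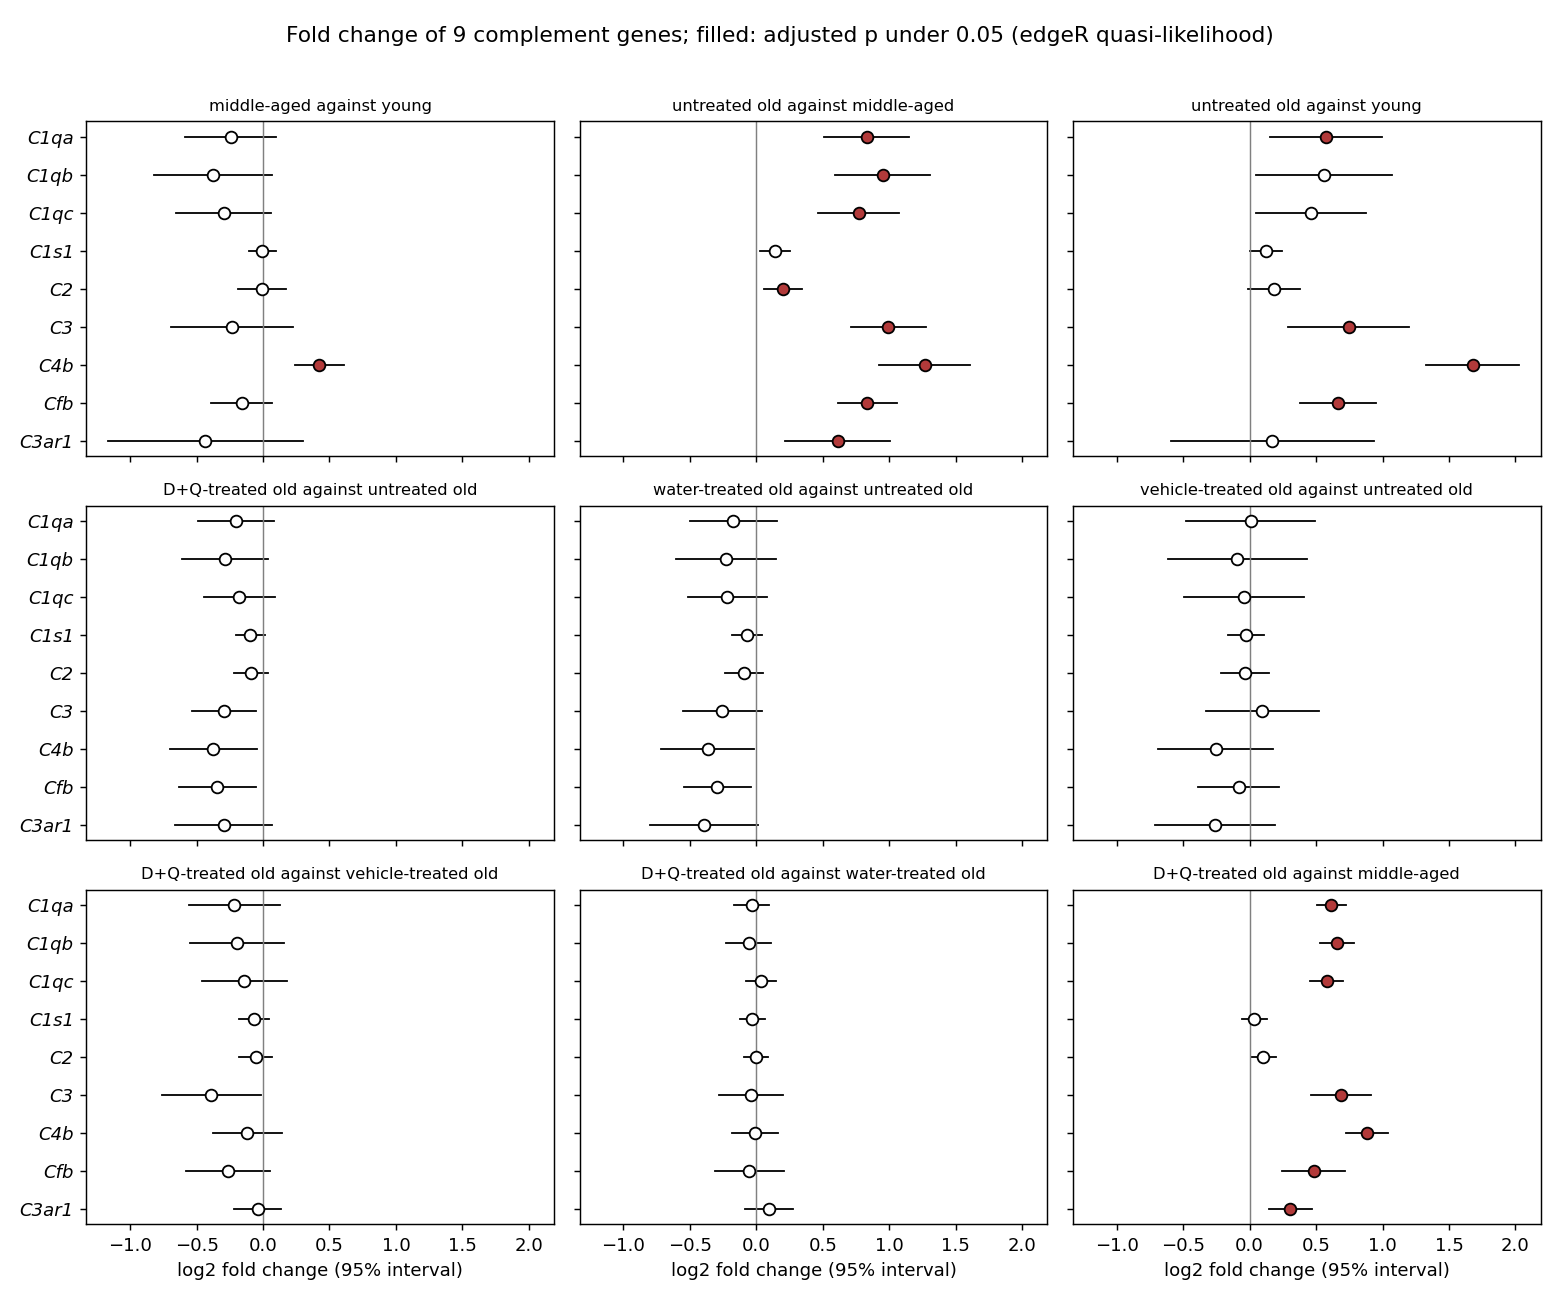
Log2 fold change (x axis) of each member (y axis) with its 95% interval in the 9 comparisons, with filled points where the adjusted p of edgeR's quasi-likelihood test was under 0.05. Filled points are 8 in untreated old against middle-aged, 7 in D+Q-treated old against middle-aged, 4 in untreated old against young and 1 in middle-aged against young, and there are none between the old groups.

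From young to middle-aged bladders only C4b passed the test among the members, where 4.96% of 16754 genes were called higher. C4b was at 125, 132, 92.5, 124, 99.9 and 122 CPM in young bladders (replicates 1 to 6), and the highest of them lay under the lowest middle-aged bladder at 147 CPM, a separation seen in 4.34% of genes. The log2 fold change was 0.42 (SE 0.087, adjusted p = 0.0107), and it was past the threshold in 17 of 17 alternatives. The other 8 members had log2 fold changes between -0.43 and -0.005 with adjusted p of 0.259 to 0.959. Of those, C3ar1 had -0.43 with a 95% interval of -1.17 to 0.30, and without young replicate 2 its value was 0.09. In the same comparison 2 of 4 plasma cell, 2 of 4 tested B cell and 1 of 10 macrophage markers rose, and 4 of 6 fibroblast, 2 of 4 endothelial, 2 of 4 mast cell and 2 of 10 macrophage markers fell. Over all genes, 1811 of 16754 were called in either direction. The median of the summed fibroblast markers was 14320 CPM at 2 months against 8059 CPM at 10 months, and the part of these cells was not tested.

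Young replicate 2 stood apart for the C1q chains and C3ar1, and was also the highest young bladder for C3. C1qa was at 139 CPM there and at 65.2 to 91.9 CPM in the other young bladders, C3 at 1335 against 544 to 945 CPM, and C3ar1 at 34.0 against 6.63 to 12.2 CPM. For C4b it was at 132 CPM, close to the 125 CPM of the next young bladder. The summed macrophage markers were also highest in that bladder, at 663 CPM where the young median was 448, and so were neutrophil markers at 10.8 CPM, with a median of 3.39, and dendritic cell markers at 23.5 CPM, with a median of 19.4. B cell markers were highest there as well, at 3.91 CPM with a median of 2.32. Mast cell markers at 28.7 CPM and hepatocyte markers at 7.43 CPM were the lowest of the group, with medians of 51.3 and 24.7. Urothelial markers were also lowest there, at 3847 CPM with a median of 4137. Their part in its complement values was not tested.

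In untreated old against young bladders the count of members called depended on the bladders kept and on the fit. With all bladders of the 2 groups, C1qa, C3, C4b and Cfb rose, 4 of 9 members where 12.6% of 16873 genes were called higher. That fit called 4229 genes in either direction. With all 6 groups in 1 fit there were 8 members, where 5073 of 18093 genes were called in either direction. Without young replicate 2 there were 8, and the share of all genes called in that fit is not given here. With young replicate 2 and untreated old replicate 3 both left out, a setting chosen after the values were seen, there were 6, where 3505 of 16895 genes were called. C4b had the largest log2 fold change at 1.68 (SE 0.16, adjusted p = 1.21e-05), a 3.20-fold rise from 116 ± 15.8 to 371 ± 106 CPM (SD, n = 6 each), and it was the 1 member whose groups did not overlap, as in 6.61% of genes. C3 rose by 0.75 (SE 0.21, adjusted p = 0.0195) and Cfb by 0.66 (SE 0.13, adjusted p = 0.0025), and both were past the threshold in 19 of 19 alternatives. Between these groups 5 of 5 B cell, 4 of 4 T cell, 3 of 4 plasma cell, 3 of 4 dendritic cell and 2 of 10 macrophage markers rose. Of fibroblasts 5 of 6 markers fell, of endothelium 3 of 4, of mast cells 3 of 4, of smooth muscle 2 of 5 and of skeletal muscle 2 of 3 tested, and the part of these cells was not tested.

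For C1qa the rise over young bladders was 0.58 (SE 0.20, adjusted p = 0.0457). Leaving out any of young replicates 1, 3, 4, 5 and 6 or untreated old replicates 2, 3, 5 and 6 ended that call, at adjusted p of 0.0524 to 0.105. A fit blocked on replicate number also ended it (adjusted p = 0.0542). C1qb had 0.56 (adjusted p = 0.106) and C1qc 0.46 (adjusted p = 0.0973), and without young replicate 2 they had 0.82 (adjusted p = 0.00546) and 0.66 (adjusted p = 0.00578), in ranges over 19 alternatives of 0.00356 to 0.24 and 0.00206 to 0.222. C3ar1 had 0.17 (SE 0.35, adjusted p = 0.78), which became 0.69 without young replicate 2 and -0.005 without untreated old replicate 3. C1s1 had 0.12 (adjusted p = 0.117) and C2 0.18 (adjusted p = 0.16).

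The wider complement system was read from a list of 49 other genes, of which 35 could be tested in untreated old against middle-aged bladders. Of these 10 rose, where 13.0% of all genes tested were called higher, 0 fell and 25 did not pass in edgeR's test, with a median log2 fold change of 0.11. At an unadjusted p under 0.05, 14 were higher and 2 lower, where 6144 of 17156 genes were under that level in either direction. By role, the calls were 5 of 8 receptors, 1 of 6 lectin pathway genes, 1 of 2 alternative pathway genes, 1 of 4 terminal components, 1 of 5 soluble regulators, 1 of 7 membrane regulators and 0 of 3 classical pathway partners, the last with 1 gene at an unadjusted p under 0.05. None of the 3 pentraxins could be tested, and Apcs, C8b, Fcnb, Mbl1 and Mbl2 had at most 3 counts in every bladder.

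The 4 with the largest rise came from 3 roles. C6, a part of the membrane attack complex, had a log2 fold change of 2.59 (SE 0.52, adjusted p = 0.00314) and was at 1.02 to 1.63 CPM in middle-aged and 2.33 to 20.5 CPM in untreated old bladders. Vsig4, a macrophage receptor for C3 fragments, had 1.498 (SE 0.48, adjusted p = 0.0395) at 0.426 ± 0.191 and 1.20 ± 0.734 CPM. Itgb2, the shared chain of complement receptors 3 and 4, had 1.05 (SE 0.10, adjusted p = 2.47e-05), and Fcna, a ficolin of the lectin pathway, 0.90 (SE 0.15, adjusted p = 0.000762). From young to middle-aged bladders 34 of the 49 could be tested, of which 2 rose and 1 fell. Over all genes, 4.96% of 16754 were called higher and 1811 were called in either direction. Cr2, a complement receptor of B cells (0.88, adjusted p = 0.0348), and Fcna (0.55, adjusted p = 0.00723) rose, while C1ra fell by 0.21 (adjusted p = 0.0234) on the log2 scale.

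**Figure D3:**
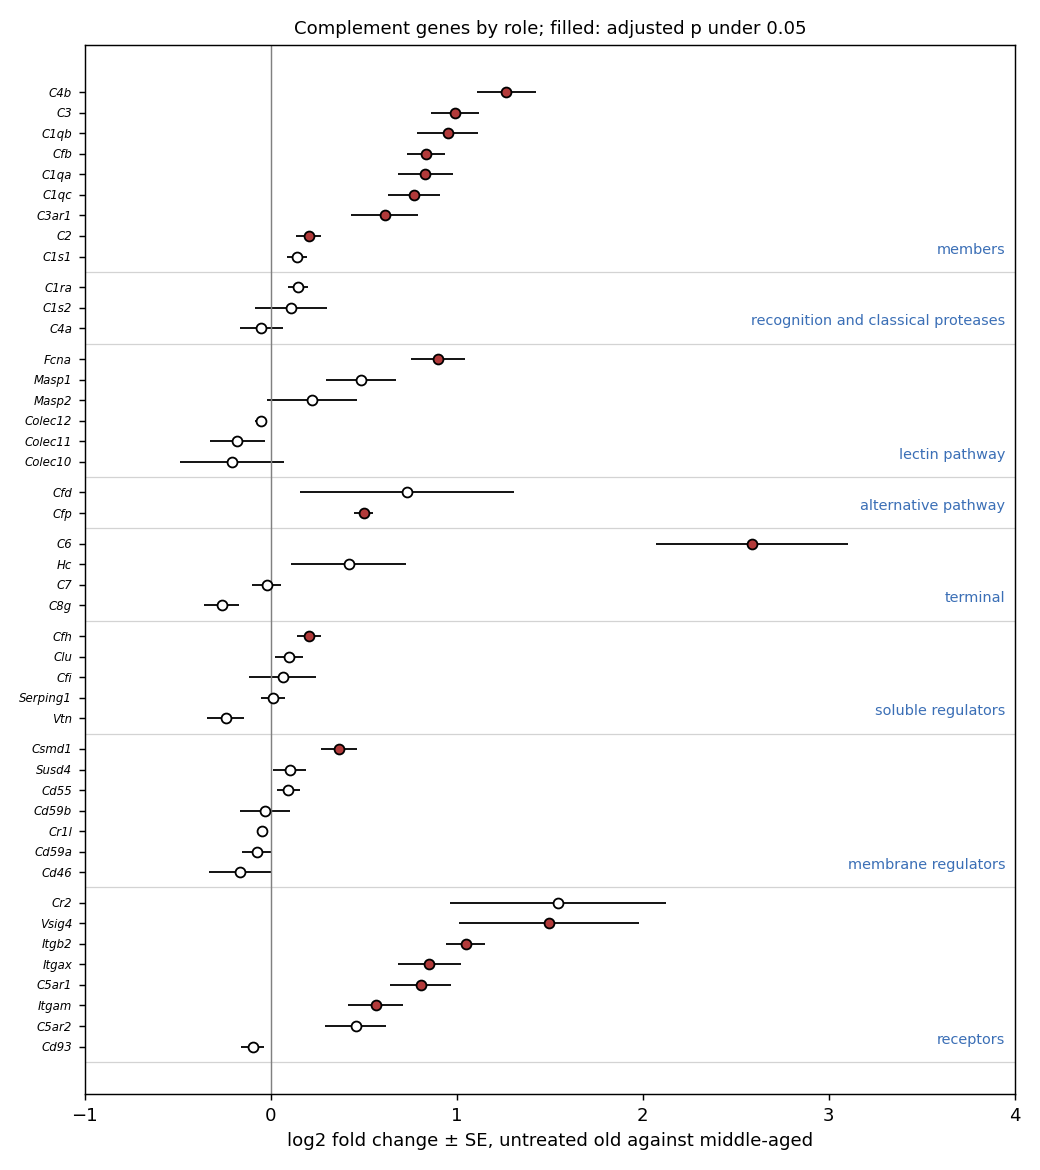
Log2 fold change ± SE (x axis) of the 9 members and of the 35 other complement genes that could be tested, by role (y axis), in untreated old against middle-aged bladders, with filled points at an adjusted p under 0.05. The receptors hold 5 filled points of 8, and the membrane regulators 1 of 7.

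Between the old groups the question was whether gavage or D+Q changed the members. No member passed at an adjusted p under 0.05 by edgeR or by DESeq2 when D+Q-treated bladders were set against untreated old ones. Over all genes, edgeR called 0 of 17037 and DESeq2 189 of 15888. At an unadjusted p under 0.05, C3, C4b and Cfb were lower (3 of 9 members, where 6.67% of genes were lower at that level), and the 9 fitted values were below 0, as were those of 49.3% of genes. C4b had -0.37 (95% interval -0.70 to -0.05), Cfb -0.34 (-0.63 to -0.06), C3 -0.29 (-0.53 to -0.05) and C1qa -0.21 (-0.49 to 0.08). Per bladder, C4b under D+Q was at 320, 269, 273, 255, 335 and 267 CPM, all within or below the untreated old range of 283 to 559.

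Water alone gave values of like size. Water-treated against untreated old bladders had 0 of 9 members past the adjusted threshold in edgeR and in DESeq2. The untreated controls were those of the comparison above. Over all genes, edgeR called 173 of 17250 and DESeq2 693 of 14844. At an unadjusted p under 0.05, C4b and Cfb were lower (2 of 9 members, where 8.13% of genes were lower at that level). All 9 fitted values were again below 0, as in 49.8% of genes. C4b had -0.37 (95% interval -0.72 to -0.02), Cfb -0.29 (-0.54 to -0.04), C3 -0.26 (-0.55 to 0.04) and C1qa -0.17 (-0.50 to 0.16). C4b was at 258, 292, 270, 305 and 327 CPM in the water-treated bladders.

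Both sets of values leaned on untreated old replicate 3. Without it C4b had -0.22 under D+Q and -0.21 under water, and C1qa -0.06 and -0.03, each nearer 0 than when any other bladder was left out. That bladder was at 559 CPM for C4b where the next was at 408. Its summed macrophage markers were at 673 CPM with a group median of 511, T cell markers at 42.3 CPM with a median of 30.0 and neutrophil markers at 13.5 CPM with a median of 6.57. It was the lowest of its group for B cell markers at 61.5 CPM (median 97.2), plasma cell markers at 128 CPM (213), mast cell markers at 31.4 CPM (42.9) and hepatocyte markers at 6.45 CPM (19.7). The part of these cells was not tested.

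D+Q-treated against water-treated bladders put bounds on any difference. The 9 members had log2 fold changes of -0.06 to 0.09 with 0 past the threshold by edgeR or DESeq2. Over all genes, edgeR called 0 of 17161 and DESeq2 66 of 15736. At an unadjusted p under 0.05 there were 0 members, where 7.82% of genes were under that level. The 95% interval was -0.18 to 0.17 for C4b, -0.28 to 0.20 for C3, -0.16 to 0.09 for C1qa and -0.31 to 0.21 for Cfb. D+Q-treated against vehicle-treated bladders also had 0 adjusted calls among the members by edgeR or DESeq2. Over all genes, edgeR called 0 of 17267 and DESeq2 13 of 17586. C3 alone was lower at an unadjusted p under 0.05 (-0.39, 95% interval -0.76 to -0.02), where 1.47% of genes were. The 9 fitted values were below 0, with a median of -0.14, where the median over all genes tested was -0.00267. The 95% interval was -0.56 to 0.13 for C1qa, -0.58 to 0.05 for Cfb and -0.38 to 0.14 for C4b, wider than against water.

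Vehicle-treated bladders spread widely for C3 and the C1q chains, and narrowly for C3ar1 (CV 4.38%) and C1s1 (CV 4.58%). C3 was at 852, 1452, 1534 and 1765 CPM (replicates 1, 2, 4 and 6) and C1qa at 88.7, 113, 170 and 163 CPM, so that replicate 1 was the lowest for both. In replicate 1 macrophage markers summed to 447 CPM, plasma cell markers to 11.7, T cell markers to 9.19 and B cell markers to 39.6, each the lowest of the group, where the medians were 541, 323, 20.0 and 78.8. It was also the lowest for neutrophil (4.41), dendritic cell (14.9), adipocyte (1.88), hepatocyte (5.46), skeletal muscle (315) and fibroblast markers (6883). It was the highest for mast cell (65.1, median 52.0) and smooth muscle markers (27770, median 25550). Their part in its values was not tested. Against untreated old bladders no member passed by edgeR, which called 0 of 17440 genes, or by DESeq2, which called 123 of 14783. At an unadjusted p under 0.05 there were 0 of 9 members, where 8.39% of genes were under that level. The fitted values were -0.26 to 0.09, and the interval for C1qa was -0.48 to 0.49, which leaves room for differences of either sign. D+Q-treated bladders were the tightest group for the C1q chains, with a CV of 5.31% for C1qa, close to the 6.80% of middle-aged and the 8.34% of water-treated bladders, where untreated old bladders had 26.9%, vehicle-treated ones 29.3% and young ones 30.3%. That difference in spread was not tested.

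Against middle-aged bladders, the D+Q-treated ones still had 7 of 9 members higher, all but C1s1 and C2, where 7.58% of 16992 genes were called higher. The C1q chains, C3, C4b and Cfb did not overlap between these groups, as for 4.94% of genes. C4b had 0.88 (SE 0.075, adjusted p = 2.39e-05), C3 0.69 (SE 0.10, adjusted p = 0.000834), C1qb 0.66 (SE 0.059, adjusted p = 3.1e-05) and Cfb 0.48 (SE 0.11, adjusted p = 0.0112). C3ar1 had 0.31 (SE 0.075, adjusted p = 0.0171). That call was lost without middle-aged replicate 4 (adjusted p = 0.051), with a fit blocked on replicate number (0.0977) and with all 6 groups in 1 fit (0.554). It held in 14 of 17 alternatives, with adjusted p from 0.00332 to 0.554 over the 17. C2 had 0.10 (adjusted p = 0.158) and passed without middle-aged replicate 5 (0.0436, in a range of 0.0436 to 0.409). Between these groups 5 of 5 B cell, 4 of 4 plasma cell, 4 of 4 T cell, 2 of 2 tested neutrophil and 4 of 10 macrophage markers rose, while 3 of 6 fibroblast and 2 of 4 endothelial markers fell. Over all genes, 2061 of 16992 were called in either direction. The part of these cells was not tested.

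Over the 6 groups, the mean level of C4b ordered as young (116 CPM), middle-aged (157), D+Q-treated old (287), water-treated old (290), vehicle-treated old (312) and untreated old (371). Young and middle-aged bladders did not overlap with the next group in that order, and each old group overlapped with the next old group. For C1qa the order ran from middle-aged (75.6 CPM) through young (88.7), D+Q-treated (115), water-treated (119) and untreated old (132) to vehicle-treated old (134), with overlap at each step. C1s1 spanned only 346 to 377 CPM and C2 60.3 to 68.4 CPM between the lowest and the highest group mean.

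Over the 32 bladders, the 36 pairs of members had Pearson's r of 0.438 to 0.985 with a median of 0.738, and of 0.419 to 0.974 with a median of 0.607 after group means were removed. C3ar1 and C4b had the lowest r, 0.438. The genes outside the complement list with the highest r, among 15054 genes searched, were Cd68 (0.943), Ctss (0.93) and Arrb2 (0.926) for C1qa, Lilrb4a (0.932), Tmem106a (0.928) and Arrb2 (0.925) for C1qb, and Tmem106a (0.932), Cd68 (0.929) and Arrb2 (0.921) for C1qc. With group means removed, Cd68 still had 0.898 with C1qa and 0.924 with C1qc.

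C3 was closest to Cd68 (0.889), Skap2 (0.875) and Laptm5 (0.872), and C3ar1 to Clec4a1 (0.90), Aoah (0.879) and Hpgds (0.878). C4b was closest to Cxcr6 (0.949), Cd3e (0.941) and Ccl8 (0.937), and with group means removed the values were 0.501, 0.553 and 0.819. Cfb was closest to Zbp1 (0.869), Tmem173 (0.857) and Tap1 (0.845). C2 was closest to Aoah (0.776), Slc11a1 (0.771) and Skap2 (0.765), and C1s1 to Nxpe5 (0.758), Fcgr3 (0.735) and F13a1 (0.72). All are descriptions over bladders that share group, depth and scaling.

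**Figure D4:**
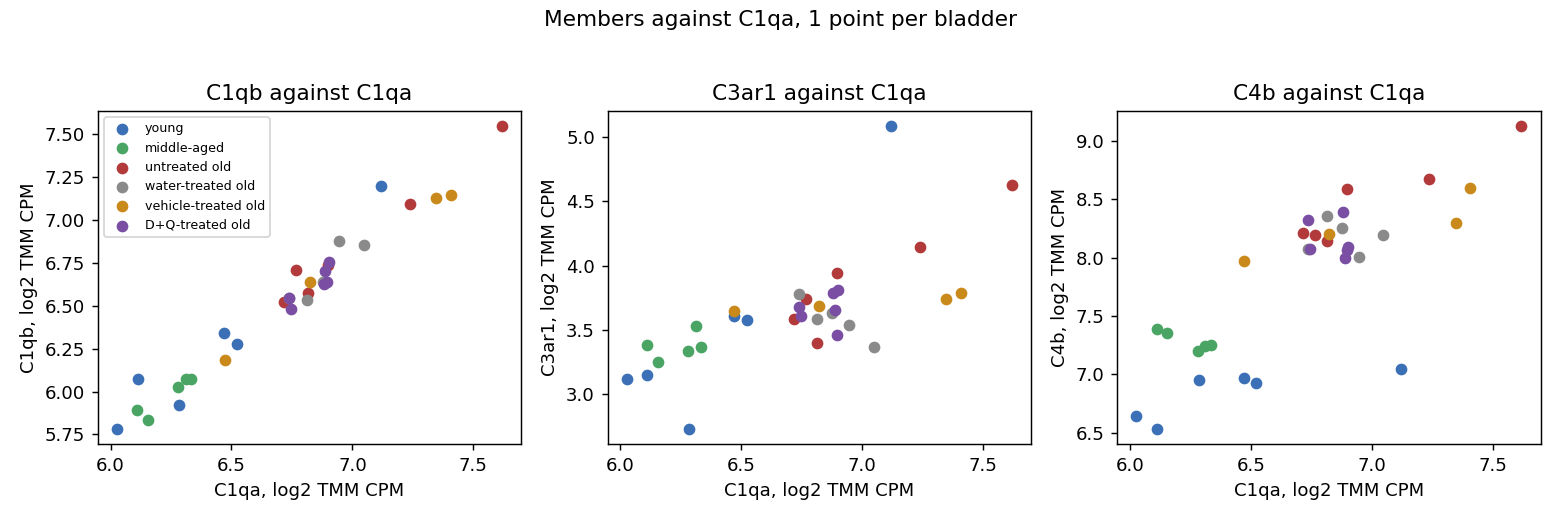
Log2 TMM CPM of C1qb, C3ar1 and C4b (y axes) against that of C1qa (x axis), 1 point per bladder, coloured by group. C1qb followed C1qa with r = 0.98, C3ar1 with 0.693 and C4b with 0.803, and at a like C1qa level the young bladders lay lowest for C4b.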

How the data were processed

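Total RNA libraries (Illumina TruSeq Stranded) of single bladders were aligned by the authors to mm10 with STAR 2.7.3 and counted per gene with featureCounts of Subread, and the deposited counts are unnormalized. The table also gives exon length in bases, the other unit that the authors deposited. A second table, of log2 values, was not used. The members, gene lists and tests were chosen with earlier results of these data known. All 9 comparisons used edgeR 4.0.16 in R 4.3.3 (filterByExpr, TMM, quasi-likelihood test, 2 groups per fit, Benjamini-Hochberg adjusted p under 0.05), and intervals came from the same F statistic. The code was tested on simulated data. Alternatives were DESeq2 1.42.0, its size factors in edgeR, other filters, all groups in 1 fit, a fit blocked on replicate number, and leave-one-out fits. Members and near-identical copies were named throughout, other complement genes by the 4 largest rises and falls past the threshold, and genes of like pattern as the 3 highest r at a mean CPM of at least 1, on log2(CPM + 0.5). Symbols matched 32158 of 32285 genes. Promoters came from RefSeq.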

Additional observations from a re-analysis of the deposited data

Results flagged for a closer look

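Of 54 groups of member values tested with Dixon's ratio, 6 held a bladder far from the others. Chance alone flags about 1 in 20 groups where values are normally distributed and groups independent. The groups were not independent, since the C1q chains had r of 0.97 to 0.974 with group means removed. Young replicate 2 accounted for 4 of these values, with C1qa at 139 CPM (next bladder 91.9, group median 83.3), C1qb at 147 CPM (80.9 and 72.3), C1qc at 144 CPM (88.5 and 80.1) and C3ar1 at 34.0 CPM (12.2 and 10.4). In untreated old replicate 3, C1s1 was at 435 CPM, with 376 in the next bladder and a median of 367. In D+Q-treated old replicate 5, Cfb was at 79.5 CPM, with 58.6 in the next bladder and a median of 54.0.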

How the results depend on the processing

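With all 6 groups in 1 fit, 8 members passed in untreated old against young bladders, 7 in untreated old against middle-aged and 6 in D+Q-treated old against middle-aged. In those comparisons that fit called 5073, 2519 and 1199 of 18093 genes in either direction. The 2-group fits called 4229 of 16873, 4110 of 17156 and 2061 of 16992. In untreated old against young bladders the number of members was from 3 to 8 with each bladder left out, where 8 came without young replicate 2. With each bladder left out, the counts were 6 to 8 in untreated old against middle-aged, 6 to 8 in D+Q-treated old against middle-aged, 1 in middle-aged against young and 0 between old groups. The shares of all genes called in these leave-one-out fits are not given here, so the ranges describe the members alone. Of 81 fold changes, 81 kept their direction and side of the threshold under DESeq2 size factors and under both other filters, and 80 did with the DESeq2 Wald test. With all 6 groups in 1 fit 72 did, and C2 in D+Q-treated against water-treated bladders turned to 0.00349. Replicate numbers were shared between groups, and what they mark is not given. Same-numbered bladders had correlations from -0.295 to 0.205, and in no comparison were all over 0.1. In untreated old against middle-aged bladders they were 0.0257 to 0.149, with a median of 0.079 against -0.0217 for different numbers. There 3 of 5 bladders correlated best with their own number, and in D+Q-treated old against middle-aged 0 of 5 did. Whether the numbers mark a pairing was not tested. A fit with the replicate block gave 7 members in untreated old against middle-aged, 3 in untreated old against young, 6 in D+Q-treated old against middle-aged, 1 in middle-aged against young and 0 elsewhere. In the comparisons named, in that order, it called 3396 of 17156, 4025 of 16873, 1527 of 16992 and 893 of 16754 genes. The block ended the calls of C2 (0.149, adjusted p = 0.0546) in untreated old against middle-aged, C1qa (0.585, adjusted p = 0.0542) in untreated old against young and C3ar1 (0.276, adjusted p = 0.0977) in D+Q-treated old against middle-aged. In vehicle-treated against untreated old bladders the block turned C1qb to 0.0426, C1qc to 0.0657, C1s1 to 0.0166, C2 to 0.0151 and Cfb to 0.0227. The causes were not tested.

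Log2 fold changes that changed sign with a bladder left out had these ranges. In middle-aged against young they ran from -0.0289 to 0.0131 for C1s1, -0.0604 to 0.0588 for C2 and -0.578 to 0.0859 for C3ar1, and in untreated old against young from -0.00543 to 0.691 for C3ar1. In vehicle-treated against untreated old they ran from -0.124 to 0.165 for C1qa, -0.218 to 0.0737 for C1qb, -0.164 to 0.106 for C1qc, -0.0536 to 0.0164 for C1s1, -0.0761 to 0.023 for C2 and -0.0454 to 0.275 for C3. In D+Q-treated against vehicle-treated bladders C4b ran from -0.215 to 0.00293. In D+Q-treated against water-treated bladders the ranges were -0.0706 to 0.00729 for C1qa, -0.0275 to 0.0178 for C2, -0.0935 to 0.0757 for C3 and -0.0628 to 0.0348 for C4b. The lowest count behind any member's value was 111, and groups held 4 to 6 bladders.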
